A study of Mus musculus with 14 samples.

Results

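Tubulin transcripts were followed in granule neuron progenitors (GNPs) from the cerebellum of mice at postnatal day 7 (P7) that differ in Chd7, a gene for an ATP-dependent chromatin remodeller. The set holds 3 alpha tubulin genes (Tuba1a, Tuba1b, Tuba1c) and 7 beta tubulin genes (Tubb2a, Tubb2b, Tubb3, Tubb4a, Tubb4b, Tubb5, Tubb6), which is 10 of the 41381 genes in the expression table, and all 10 passed the filter on low values. Members were set by a list of gene names, with earlier results of these data known. They were divided from textbook knowledge into a neuronal class (Tuba1a, Tubb2a, Tubb2b, Tubb3 and Tubb4a), which is enriched in neurons or the nervous system, and a general class (Tuba1b, Tuba1c, Tubb4b, Tubb5 and Tubb6), which is found in many tissues. These progenitors proliferate at the surface of the young cerebellum, in its external granule layer, before they become granule neurons, and here RNA was taken without culture after isolation on a Percoll gradient.

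The 14 RNA sequencing libraries comprise 5 WT, 5 Het and 4 Hom. WT carried floxed Chd7 (Chd7 f/f in the study's methods) without Cre, with WT 1 to 3 labelled as Chd7 wild type and WT 4 and 5 as Atoh1-Cre negative. Het carried Atoh1-Cre::Chd7 f/+, which removes 1 copy in cells with Cre, and Hom carried Atoh1-Cre::Chd7 f/f, which removes both. Cre from the Atoh1 promoter acts in cells of the rhombic lip, which give rise to granule cells and other excitatory neurons, and the study describes Chd7 protein remaining in the posterior lobe, so cells that keep Chd7 can be in a preparation. No WT library carried Atoh1-Cre, so loss of Chd7 and presence of Cre cannot be told apart. The pups were C57BL/6N by the methods, whereas the labels give C56Bl6/J or C57BL/6, and both sexes could be present. Sequencing batch 1 comprised the libraries numbered 1 to 3 of WT and of Het with Hom 1 and 2. The remaining 6 libraries (WT 4, WT 5, Het 4, Het 5, Hom 3, Hom 4) formed batch 2. These batches come from the study's methods, and that of Het 3 is in doubt, since its strain label is that of the batch 2 libraries. The labels do not say whether libraries came from separate animals, so p-values measure the spread between libraries only.

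Microtubules are built from dimers of 1 alpha and 1 beta tubulin protein, and each protein is encoded by several genes with tissue-specific use. In the developing brain, Tuba1a and Tubb2b are abundant in newborn migrating neurons, Tubb3 is the classical marker of a committed neuron, and mutations of each cause disorders of neuronal migration or axon guidance. Dividing cells depend on the general isotypes, among which Tubb5 and Tuba1b are major contributors to the spindle. Tubulin messages are also under autoregulation, in which the factor Ttc5 binds the first residues of a nascent tubulin on the ribosome and triggers decay of its message when free tubulin is in excess.

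The start of each coding sequence is shown because it encodes the stretch read in autoregulation. Each line gives the first 30 coding bases of the principal GENCODE transcript (GRCm38), 5′ to 3′, with the first 12 bases in capitals.
Tuba1a: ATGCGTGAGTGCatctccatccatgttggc
Tuba1b: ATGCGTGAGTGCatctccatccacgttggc
Tuba1c: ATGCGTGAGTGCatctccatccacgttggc
Tubb2a: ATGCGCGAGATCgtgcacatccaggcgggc
Tubb2b: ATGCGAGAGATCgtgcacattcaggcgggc
Tubb3: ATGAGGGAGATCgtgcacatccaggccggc
Tubb4a: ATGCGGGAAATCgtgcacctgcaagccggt
Tubb4b: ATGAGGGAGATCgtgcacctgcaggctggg
Tubb5: ATGAGGGAAATCgtgcacatccaggccgga

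The 3 alpha genes share all of their first 12 bases. The 6 beta genes printed use 5 different spellings of theirs, and only Tubb3 and Tubb4b have the same one, so a neuronal and a general isotype open with the same bases.

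The other end of the coding sequence shows what sets the beta isotypes apart. It encodes the carboxy-terminal tail, which projects from the microtubule surface and carries glutamylation and other modifications. Each line gives the last 48 coding bases of a beta gene, 5′ to 3′, with the stop codon in capitals.
Tubb2a: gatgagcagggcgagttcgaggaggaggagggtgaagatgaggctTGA
Tubb2b: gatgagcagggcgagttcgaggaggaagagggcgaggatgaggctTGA
Tubb3: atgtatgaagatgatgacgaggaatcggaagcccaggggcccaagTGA
Tubb4a: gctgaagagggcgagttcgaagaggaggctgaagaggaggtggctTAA
Tubb4b: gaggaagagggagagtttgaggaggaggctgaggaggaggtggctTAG
Tubb5: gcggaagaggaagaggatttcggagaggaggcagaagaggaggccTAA

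Over the whole coding sequence, the 21 pairs of beta genes had a median identity of 83.4% (80.2% to 96.5%), with Tubb2a and Tubb2b the closest pair. Over the last 60 bases the median was 60.3%, and the lowest pair was Tubb2b and Tubb3 at 43.3%. Alpha genes were nearly alike, at 97.1% to 98.3% over the coding sequence. An alpha and a beta gene matched at 52.6% to 55.4%.

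The genes also sit together on the genome (GRCm38 coordinates, all protein coding). Tuba1b (ENSMUSG00000023004; chr15:98931425-98934565, minus strand) lies 15271 bp from Tuba1a (ENSMUSG00000072235; chr15:98949837-98953703, minus strand), and Tuba1c (ENSMUSG00000043091; chr15:99029891-99038110, plus strand) lies 76187 bp beyond. Tubb2a (ENSMUSG00000058672; chr13:34074274-34078007, minus strand) and Tubb2b (ENSMUSG00000045136; chr13:34126748-34130466, minus strand) are 48740 bp apart. Tubb3 (ENSMUSG00000062380; chr8:123411424-123422015, plus strand) and Tubb4b (ENSMUSG00000036752; chr2:25222160-25224702, minus strand) are alone on their chromosomes among the members. Tubb4a (ENSMUSG00000062591; chr17:57080066-57087782, minus strand) and Tubb5 (ENSMUSG00000001525; chr17:35833921-35838306, minus strand) share a chromosome without being neighbours.

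This likeness bears on how well a 50-base read can be given to 1 gene. Of all 50-base windows in the principal transcript, 75.5% in Tuba1a, 83.1% in Tuba1b and 61.0% in Tuba1c also occur in a transcript of another gene. The shares were 49.6% in Tubb2a and 39.3% in Tubb2b, mostly with each other, and 55.5% in Tubb4b, where the other genes are mainly its annotated pseudogenes. Tubb3 and Tubb6 had no shared window, and Tubb4a and Tubb5 had 0.184% and 0.115%. By exact matches, windows of Tubb3, Tubb4a, Tubb5 and Tubb6 are thus all or almost all their own. Matches with mismatches were not counted, so reads of these 4 genes can also have been divided. Values of the other 6 genes depend on how the authors' RSEM run divided shared reads and are uncertain singly. Sums that do not depend on that division within the set are given beside them. Of 18 look-alike genes that share at least 50 windows, 11 had values, which summed to 11.7 to 30.3 TPM in a library. Levels of the others are unknown, among them AC157548.1, which shares the most windows (2510, counted over the alpha genes).

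**Figure D1:**
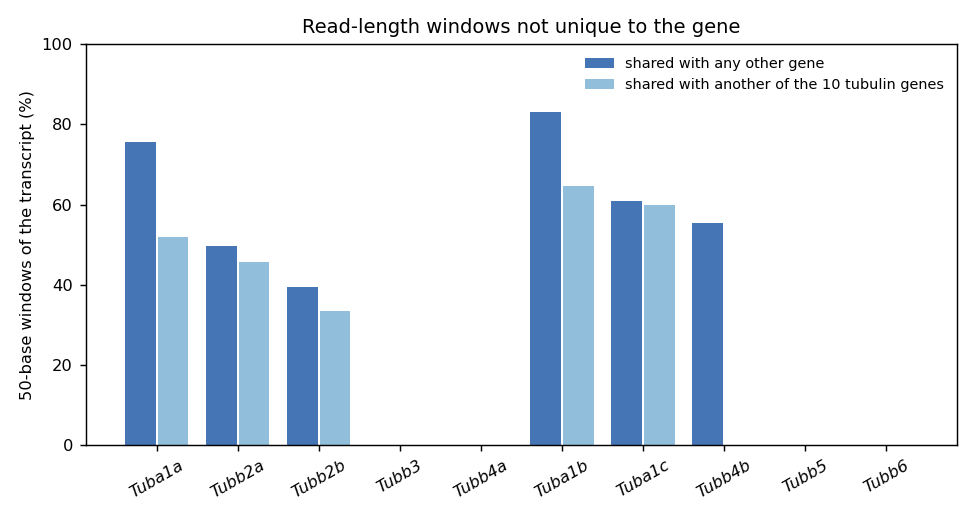
Share of 50-base windows (vertical axis, percent) in the principal transcript of each tubulin gene that also occur in another gene (dark bars) or in another of the 10 tubulin genes (light bars). The 3 alpha genes, Tubb2a, Tubb2b and Tubb4b stand at 39.3% to 83.1%, and the remaining 4 genes are at or near 0.

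Levels are given as transcripts per 1000000 (TPM), which corrects for transcript length and can be set side by side between genes. Read depth is not kept in TPM, so the counting precision of single values is unknown, and between 15863 and 16734 genes reached 1 TPM in a library. The targeted gene did not follow the labels in batch 1, where Chd7 was at 172 and 185 TPM in the libraries labelled Hom and at 121 to 152 TPM in WT, while in batch 2 it was at 126 and 150 TPM in Hom and 203 and 272 TPM in WT. Het libraries had 150 to 181 TPM in batch 1 and 137 and 149 TPM in batch 2. Directions reported for Hom and Het therefore rest on the labels. Progenitor and granule neuron markers were present in all libraries, with summed levels of 3169 to 3990 TPM for 17 progenitor genes and 2071 to 3330 TPM for 13 granule neuron genes. Markers of other cells had lower sums over shorter lists. Those sums reached 1922 TPM for 10 astroglia genes (in WT) and 1771 TPM for 10 oligodendroglia genes (in Het), so glial RNA was not scarce in all libraries.

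In WT, tubulin messages were a large part of the transcriptome. The 10 genes together held 1.27% to 1.71% of all TPM. Tuba1a was the sixth most abundant gene of the table, at 7180 ± 1311 TPM (SD, n = 5). Below it came Tubb5 at 2101 ± 257, Tubb2b at 1733 ± 207 and Tuba1b at 1623 ± 76.4. Tubb3 followed at 621 ± 82.5 TPM, Tubb2a at 384 ± 96.0, Tubb4b at 383 ± 31.2 and Tubb4a at 180 ± 52.4. Tuba1c at 55.9 ± 6.23 TPM and Tubb6 at 8.02 ± 3.37 TPM were the minor members. Most neighbours in this order held their place in each of the 5 WT libraries. The exceptions were Tubb2b and Tuba1b, where Tubb2b was higher in 4 of 5 libraries, and Tubb2a and Tubb4b, which changed places (Tubb2a higher in 2 of 5). The order of means in Hom was different at both points, with Tuba1b above Tubb2b and Tubb4b above Tubb2a in 4 of 4 libraries. Het had the Hom order by mean, in 3 of 5 libraries for the first pair and 4 of 5 for the second. In WT 1 to 3, Tubb4b was also above Tubb2a.

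Libraries labelled Hom had lower levels of 4 of the 5 neuronal isotypes, with Tubb4a the exception. In the limma fit over all 17325 tested genes with sequencing batch as a term, 4 of the 5 neuronal members were called lower in Hom than in WT (Tubb2a, Tubb3, Tubb2b and Tuba1a, adjusted p under 0.05), 0 of the 5 general members were called, and no member was called higher. The same rule called 1.41% of all tested genes lower and 1.27% higher. The 4 called members and Tubb5 (5 in all) had every Hom library below every WT library of its batch, as did 3.56% of all tested genes. In bulk RNA, fewer cells of a type and less RNA per cell cannot be told apart, so a lower Tubb3 level is not a statement on each neuron.

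Tubb2a, a beta isotype of mature and developing neurons, had the largest fall. Its level was 327, 334 and 297 TPM in WT 1 to 3, and 530 and 431 TPM in WT 4 and 5. In Hom it was 217 and 245 TPM in batch 1 and 316 and 296 TPM in batch 2. Hom lay below WT in both batches, with the batch 2 Hom libraries near the level of batch 1 WT. The log2 change was -0.55 (SE 0.092, 95% interval -0.75 to -0.35, limma adjusted p 0.00506), so that TPM + 1 fell by 31.7%.

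Tubb3, the neuron-specific beta tubulin without an exactly shared 50-base window, was at 593, 563 and 548 TPM in WT 1 to 3 and at 751 and 649 TPM in WT 4 and 5. Hom 1 and 2 had 447 and 402 TPM, and Hom 3 and 4 had 623 and 496 TPM. Within each batch the Hom libraries were lowest, although Hom 3 reached the range of batch 1 WT. Tubb3 changed by -0.38 on the log2 scale (SE 0.071, 95% interval -0.53 to -0.22, limma adjusted p 0.0111), so that TPM + 1 fell by 23.0%.

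Tubb2b, the more abundant partner of Tubb2a and a gene of migrating neurons, was at 1665, 1604 and 1553 TPM in WT 1 to 3 and at 2075 and 1767 TPM in WT 4 and 5. The Hom values were 1332, 1289, 1552 and 1334 TPM. It was the one member whose Hom and WT ranges did not overlap even with the batches pooled, although Hom 3 lay just below WT 3. The log2 change was -0.35 (SE 0.069, 95% interval -0.50 to -0.20, limma adjusted p 0.0156). Without Hom 4 it was no longer called (adjusted p 0.0536). Since Tubb2a and Tubb2b share reads, their sum was also taken, which was 2116 ± 302 TPM in WT (SD, n = 5) and 1645 ± 154 TPM in Hom (SD, n = 4), below all WT of the batch in 4 of 4 Hom libraries.

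Tuba1a, the main alpha tubulin of postmitotic neurons, was at 6413, 6060 and 6220 TPM in WT 1 to 3 and at 8782 and 8423 TPM in WT 4 and 5. Hom 1 and 2 had 5256 and 5463 TPM, and Hom 3 and 4 had 7206 and 6244 TPM. Hom again lay below WT within each batch and overlapped across them. The change of -0.28 (SE 0.068, 95% interval -0.43 to -0.13) had a limma adjusted p of 0.0457, just under the threshold, and was called in only 2 of the 14 fits that leave out 1 library (without Het 4 or Het 5), with adjusted p up to 0.142. With Het 3 moved to batch 2 it was not called (adjusted p 0.176). The summed level of the alpha genes depends less on how reads were divided among them. It was 8858 ± 1377 TPM in WT and 7740 ± 1077 TPM in Hom. In 4 of 4 Hom libraries it was below all WT of the batch.

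Tubb4a, which is used by mature neurons and also by oligodendrocytes, was the neuronal member without a lower level. It was at 135, 170 and 136 TPM in WT 1 to 3 and 261 and 199 TPM in WT 4 and 5, against 135 and 186 TPM in Hom 1 and 2 and 280 and 274 TPM in Hom 3 and 4. No Hom library was below the WT of its batch, and 3 of 4 were above. The log2 change of 0.19 was within its error (SE 0.13, 95% interval -0.09 to 0.47, limma adjusted p 0.546). The 10 oligodendroglia markers, with none at 0 in all libraries, were also summed. In batch 1 the sums overlapped, at 1122 to 1560 TPM in WT and 647 and 1494 TPM in Hom. In batch 2 the Hom sums (1481 and 1596 TPM) were above those of WT (1378 and 830 TPM). Het sums were 692 to 1771 TPM in batch 1 and 1675 and 1427 TPM in batch 2. The part of oligodendroglia in the Tubb4a values was not tested.

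**Figure D2:**
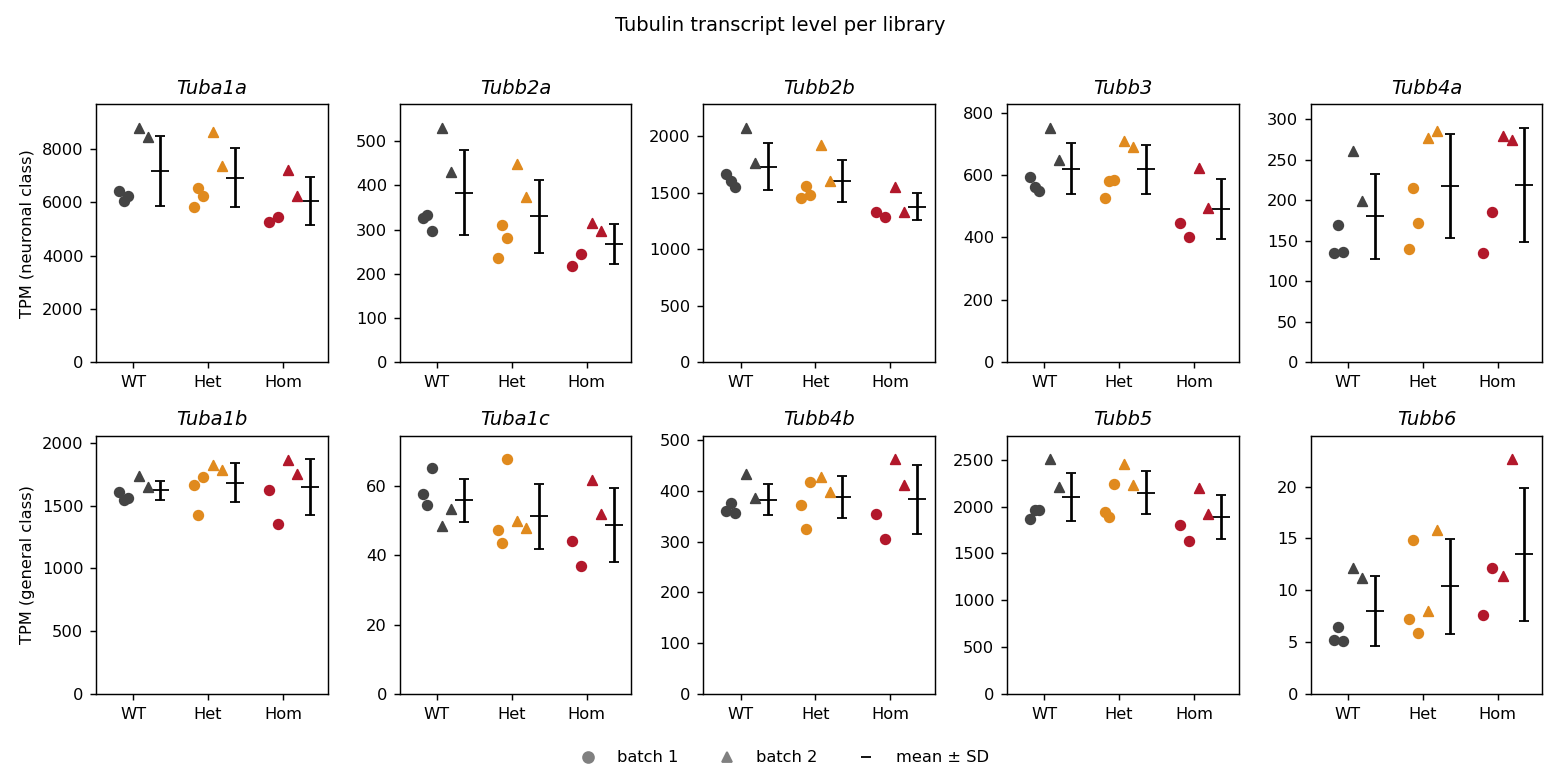
TPM (vertical axes, linear from 0) of each tubulin gene in every library by genotype, with circles for batch 1, triangles for batch 2 and black marks for mean ± SD over all libraries of the genotype. In the upper row (neuronal class) the Hom points of Tuba1a, Tubb2a, Tubb2b and Tubb3 lie below the WT points of the same batch, and in the lower row (general class) Tubb5 is the gene with that pattern.

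None of the general isotypes was called, and 1 of them, Tubb5, had an unadjusted p under 0.05. Tuba1b, the alpha tubulin of dividing cells, was at 1612, 1549, 1564, 1739 and 1650 TPM in WT and at 1629, 1353, 1866 and 1749 TPM in Hom. The groups overlapped, and the log2 change was -0.00 with a 95% interval of -0.15 to 0.15 (limma adjusted p 0.990). Tubb4b, a beta isotype of most tissues and of cilia, was at 355 to 434 TPM in WT and at 306 to 462 TPM in Hom. Its change was -0.03 (95% interval -0.21 to 0.14, adjusted p 0.906). These intervals exclude a fall of the size fitted for Tubb2a, but each single value of Tuba1b and Tubb4b rests in part on shared reads.

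Tubb5, the main beta tubulin of proliferating cells, was at 1872, 1964 and 1961 TPM in WT 1 to 3 and at 2503 and 2204 TPM in WT 4 and 5. In Hom it was at 1802, 1637, 2201 and 1922 TPM. All 4 Hom libraries were below the WT of their batch, with Hom 3 just below WT 5. The log2 change of -0.18 (SE 0.068, 95% interval -0.32 to -0.03) had an unadjusted p of 0.0206, as reached by 6.42% of tested genes in this direction, and was not called after adjustment (limma adjusted p 0.232). When the 3 genotypes were ranked on values from which the fitted batch effect had been subtracted (exact Kruskal-Wallis test, unadjusted threshold 0.01), Tubb5 passed with p 0.00757, as did the 4 called members and, in this direction, 2.21% of tested genes. That test permutes libraries across the batches, and it was not run on values without batch adjustment.

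Tuba1c and Tubb6 were the scarcest members and had the widest intervals. Tuba1c, a less abundant alpha isotype, was at 48.4 to 65.3 TPM in WT and 36.8 to 61.8 TPM in Hom, with a log2 change of -0.22 (95% interval -0.54 to 0.11, limma adjusted p 0.557). Tubb6, a beta isotype found mainly outside neurons, was at 5.21, 6.45, 5.14, 12.1 and 11.2 TPM in WT and at 7.65, 12.2, 11.4 and 22.6 TPM in Hom. Of the Hom libraries, 3 of 4 were above the WT of their batch, and the change of 0.60 (SE 0.28, 95% interval -0.00 to 1.2) was not called (limma adjusted p 0.338). The 10 endothelium and mural cell markers, none of which was at 0 in all libraries, all had positive Hom changes (median 1.41, 0 called, 6 with an unadjusted p under 0.05 as for 8.51% of tested genes, summed level 40.7 to 306 TPM in WT and 148 to 465 TPM in Hom), and their part in the Tubb6 values was not tested.

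**Figure D3:**
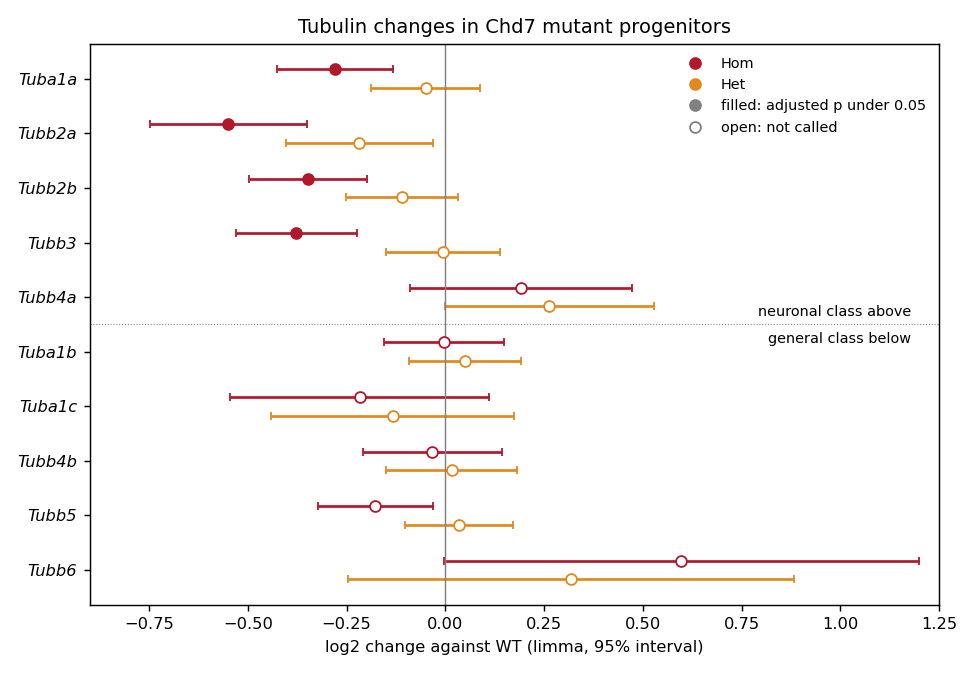
Fitted log2 changes (horizontal axis) against WT for Hom (red) and Het (orange) with 95% intervals from limma, neuronal class above the dotted line and general class below. Filled points mark adjusted p under 0.05. The 4 filled points are Hom values of Tuba1a, Tubb2a, Tubb2b and Tubb3, between -0.55 and -0.28.

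Because the libraries came in 2 sequencing batches, the Hom change was also fitted within each. In batch 1 alone (8 libraries), the log2 changes were -0.47 for Tubb2a, -0.42 for Tubb3, -0.29 for Tubb2b and -0.22 for Tuba1a. In batch 2 alone (6 libraries) they were -0.64, -0.33, -0.41 and -0.36 in the same order. The 4 members were thus lower in either batch, each with an unadjusted p under 0.05, which 7.18% of tested genes reached in this direction in batch 1 and 7.85% in batch 2. As the 4 were picked by a fit to these same libraries, the values within batches are descriptions and no independent support. None was called in a batch alone (limma adjusted p 0.0594 to 0.321 in batch 1 and 0.181 to 0.306 in batch 2), and without a batch term none was called either (adjusted p 0.149 to 0.577). A test of the difference in the Hom change between batches called 0 of the 10 members and 0.0115% of tested genes. Among them, Tuba1c had a change of -0.54 in batch 1 and 0.15 in batch 2 (difference 0.69, SE 0.25, unadjusted p 0.0177, passed upward by 8.35% of tested genes at 0.05, limma adjusted p 0.202). With only the WT and Hom libraries in the fit, 1 member, Tubb2a, was called.

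**Figure D4:**
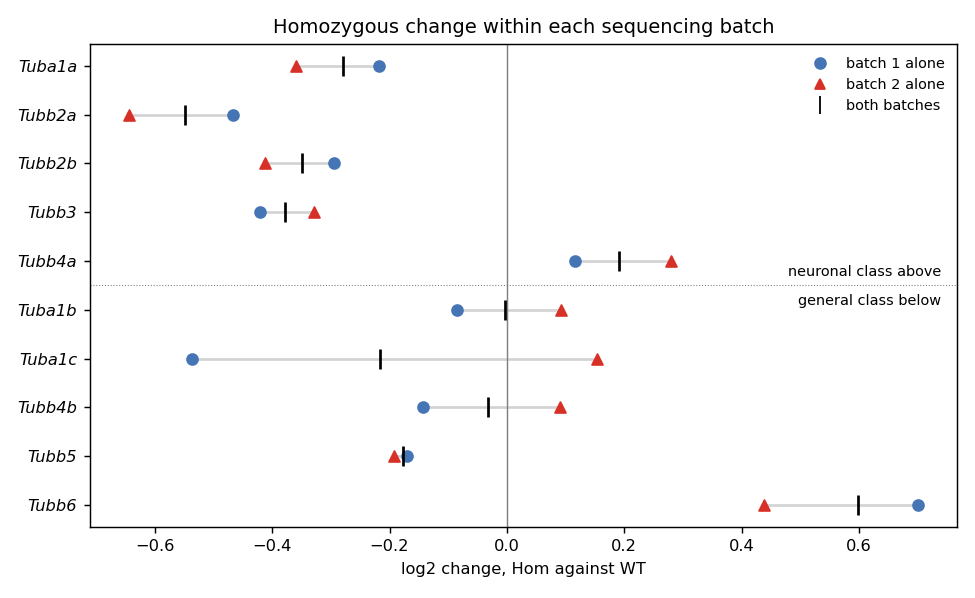
Log2 change of Hom against WT (horizontal axis) fitted in batch 1 alone (circles), batch 2 alone (triangles) and both batches together (bars) for each tubulin gene. Tuba1a, Tubb2a, Tubb2b, Tubb3 and Tubb5 were below 0 in both batches, Tubb4a and Tubb6 above 0 in both, and Tuba1b, Tuba1c and Tubb4b changed sign.

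More members differed between the batches than between the genotypes. With genotype in the model, 8 of the 10 members were called higher in batch 2 than in batch 1, where the same rule called 7.88% of tested genes higher. Tubb4a had the largest batch difference at 0.71 on the log2 scale (SE 0.10, limma adjusted p 0.00186), followed by Tubb2a at 0.53, Tuba1a at 0.39 and Tubb3 at 0.33. The remaining called members were Tubb5 (0.25), Tubb4b (0.24), Tubb2b (0.21) and Tuba1b (0.18). All 5 neuronal members and 3 of the 5 general members were called, with a median difference of 0.39 in the neuronal class, 0.24 in the general class and 0.02 over all tested genes. Tubb6 (0.66, adjusted p 0.0702) and Tuba1c (0.04, adjusted p 0.878) were not called.

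No tubulin was called in Het. In the comparison with WT, 0 of the 10 members passed the limma test in either direction, against 0.00577% of tested genes called higher and 0.0% called lower, and no member had every Het library below or above every WT library of its batch (1.09% and 1.43% of tested genes). Tubb2a was the one member with an unadjusted p under 0.05, at 237, 311, 281, 447 and 375 TPM in Het 1 to 5 (log2 change -0.22, SE 0.086, unadjusted p 0.0247, limma adjusted p 0.728), where 2.88% of tested genes reached that level in this direction. Tubb3 was at 528, 580, 584, 707 and 690 TPM in Het, within the WT range but for Het 1, with a change of -0.01 and a 95% interval of -0.15 to 0.14. Tubb2b changed by -0.11 (95% interval -0.25 to 0.03) and Tuba1a by -0.05 (-0.19 to 0.09). Tubb4a again had a positive value, 0.26 (95% interval -0.00 to 0.53, unadjusted p 0.0507, adjusted p 0.814), with Het levels of 139, 215, 172, 277 and 285 TPM. The 5 general members had changes of -0.13 to 0.32, none called.

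Hom was also set against Het, where both groups carry Atoh1-Cre. Tubb3 was the 1 member called, lower by 0.37 on the log2 scale in Hom (SE 0.071, 95% interval -0.52 to -0.22, limma adjusted p 0.0438), where the rule called 0.277% of tested genes lower. Hom 1 and 2 (447 and 402 TPM) lay below Het 1 to 3 (528 to 584 TPM), and Hom 3 and 4 (623 and 496 TPM) lay below Het 4 and 5 (707 and 690 TPM). The call held in 3 of the 14 fits that leave out 1 library (without WT 4, WT 5 or Hom 3), with adjusted p up to 0.146 in the others, and was lost with Het 3 moved to batch 2 (adjusted p 0.216). In 4 members (Tuba1a, Tubb2b, Tubb3 and Tubb5) every Hom library was below every Het library of the batch, as for 2.23% of tested genes. Tubb2a (-0.33, adjusted p 0.223), Tubb2b (-0.24, 0.274), Tuba1a (-0.23, 0.287) and Tubb5 (-0.21, 0.375) were not called. As the Hom libraries serve in both comparisons, the one with WT and the one with Het are not independent.

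The neuronal and general classes were then compared as shares, which do not depend on the total. The neuronal class summed to 10097 ± 1716 TPM in WT, 9686 ± 1492 in Het (both SD, n = 5) and 8398 ± 1188 in Hom (SD, n = 4), and the general class to 4170 ± 355, 4284 ± 418 and 3985 ± 530 TPM. Neuronal members made up 70.6% ± 1.86 of the 10 genes in WT, 69.2% ± 2.41 in Het and 67.8% ± 1.53 in Hom. The share was below all WT of the batch in 3 of 4 Hom and 4 of 5 Het libraries, and above in 1 Het library. This share and the class sums depend on how RSEM divided reads between the classes. Of their windows, 52.0% in Tuba1a (neuronal) and 64.6% in Tuba1b (general) also occur in another member. Among beta genes alone, where the classes have 1 exactly shared window (in Tubb5), the neuronal share was 53.9% ± 1.19 in WT, 52.0% ± 2.41 in Het and 50.8% ± 1.01 in Hom. It was below all WT of the batch in 4 of 4 Hom and 4 of 5 Het libraries. The median log2 change in Hom was -0.35 in the neuronal class, -0.03 in the general class and 0.02 over all tested genes.

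Within the beta genes the parts moved unequally. Tubb2b took 32.1% ± 0.884 of beta TPM in WT, 30.2% ± 1.48 in Het and 29.8% ± 1.78 in Hom, and was below all WT of the batch in 5 of 5 Het and 4 of 4 Hom libraries. Tubb2a held 7.01% ± 0.807, 6.14% ± 0.878 and 5.77% ± 0.510 in the same order, with 4 of 5 Het and 4 of 4 Hom libraries below. Tubb3 held 11.5% ± 0.294 in WT, 11.6% ± 0.457 in Het and 10.5% ± 0.661 in Hom. In the other direction, Tubb4b took 7.11% ± 0.369 in WT, 7.32% ± 0.643 in Het and 8.23% ± 0.511 in Hom. It was above all WT of the batch in 4 of 5 Het and 4 of 4 Hom libraries, although its own TPM did not differ beyond error. Tubb4a took 3.29% ± 0.522 in WT, 4.05% ± 0.871 in Het and 4.66% ± 1.12 in Hom. The ratio of Tubb3 to Tubb4a, with 0% and 0.184% of their windows shared, was 3.57 ± 0.616 in WT, 2.97 ± 0.593 in Het and 2.37 ± 0.648 in Hom, below all WT of the batch in 4 of 4 Hom libraries. The ratio of alpha to beta transcripts was 1.64 ± 0.097 in WT, 1.62 ± 0.047 in Het and 1.67 ± 0.036 in Hom.

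**Figure D5:**
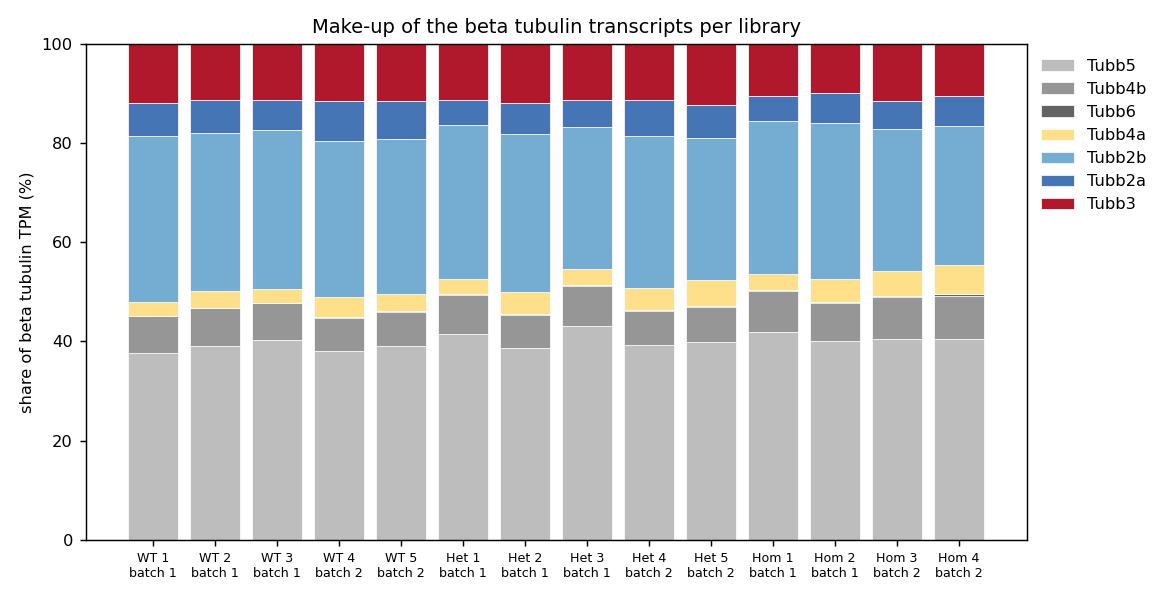
Make-up of the beta tubulin TPM (vertical axis, percent) in each library, with general isotypes in grey at the bottom and neuronal isotypes in colour above. The coloured part averages 53.9% in WT, 52.0% in Het and 50.8% in Hom.

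The remaining alpha and beta tubulin genes of the table were at low levels. Tuba4a was at 11.1 ± 1.75 TPM in WT and 10.7 ± 6.07 in Hom (log2 change -0.22, limma adjusted p 0.737). Tuba8 did not pass 1.27 TPM in any library, and Tuba3a, Tuba3b, Tubal3 and Tubb1, the last being the platelet isotype, stayed under 1 TPM. The 4 gamma, delta and epsilon tubulins, which nucleate microtubules or belong to centrioles, had a median Hom change of 0.05, with 0 called and 0 under an unadjusted p of 0.05.

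No gene of the machinery that folds tubulin was called in the limma fit. Of the 8 subunits of the CCT chaperonin, which folds new tubulin, 0 were called in Hom. All 8 changes were above 0 (median 0.06, 0.02 to 0.10), and 1 subunit was higher at an unadjusted p under 0.05. Over all tested genes, 8.51% were higher and 6.42% lower at that level. Prefoldin, which hands tubulin to CCT, had 0 of 6 called and 0 under an unadjusted p of 0.05 (median -0.04). The folding cofactors and autoregulation genes had 0 of 8 called and 2 lower under an unadjusted p of 0.05 (median -0.15). Among them Tbcb, a cofactor of alpha tubulin, was at 109 ± 7.18 TPM in WT and 98.9 ± 9.82 in Hom (log2 change -0.16, limma adjusted p 0.262), and Ttc5 was at 63.0 ± 3.36 and 56.5 ± 2.06 TPM (-0.15, adjusted p 0.217). Of 16 tested enzymes that modify tubulin tails, 0 were called and 1 was lower at an unadjusted p under 0.05 (median -0.00).

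Among proteins that bind microtubules, 1 gene was called in Hom, where the rule called 1.41% of all tested genes lower and 1.27% higher. Stmn2, a stathmin of growing axons that sequesters tubulin, fell from 620 ± 20.6 TPM in WT to 425 ± 22.8 TPM in Hom (log2 change -0.55, SE 0.055, limma adjusted p 1.11e-04), close to the value fitted for Tubb2a. It was the 1 gene of 10 called in the list of severing and destabilizing proteins, where Stmn1, the stathmin of dividing cells, had -0.09 (adjusted p 0.620) and Stmn3, of neurons, -0.25 (adjusted p 0.110). Of 21 neuronal microtubule-associated proteins 0 were called and 4 lower and 1 higher passed an unadjusted p of 0.05, where 6.42% of tested genes were lower and 8.51% higher. Changes were below 0 for 18 of them and for 7707 of the 17325 tested genes, and the median of the list was -0.05 against 0.02 over all tested genes. Doublecortin (Dcx), the protein of migrating neurons, was at 297 ± 19.3 TPM in WT and 254 ± 46.3 in Hom (-0.22, adjusted p 0.197). Spindle motors and regulators, which mark dividing cells, had 0 of 10 called, 0 under an unadjusted p of 0.05 and a median of 0.09.

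Cell type markers were read beside these values. In Hom, 1.41% of all tested genes were called lower and 1.27% higher. Of 12 tested granule neuron markers 2 were called lower in Hom, Neurod1 (-0.55, limma adjusted p 0.0116), a transcription factor of early granule neurons, and Slc17a7 (-0.71, adjusted p 0.0439), a vesicular glutamate transporter, and 1 was called higher, Grin2c (1.51, adjusted p 0.00465), an NMDA receptor subunit at 3.62 TPM in Hom. The median of that list was -0.15. Of 17 progenitor markers 1 was called, Ccnd1, a cyclin of proliferating GNPs, which was higher (0.80, adjusted p 1.11e-04), and the median was 0.15. All 10 astroglia markers had changes below 0 in Hom (median -0.84, 0 called, 6 with an unadjusted p under 0.05, as for 6.42% of tested genes in this direction), with summed levels of 426 to 1922 TPM in WT, 604 to 1195 in Het and 351 to 725 in Hom, and none at 0 in all libraries. Purkinje cell markers had 1 of 10 called, Pcp4 (-1.73, adjusted p 0.00914), 2 with an unadjusted p under 0.05, 9 of 10 changes below 0 and a median of -0.45, with summed levels of 107 to 266 TPM in WT and 98.5 to 150 in Hom. Inhibitory interneuron markers had 1 of 10 called, Lhx1 (-0.45, adjusted p 0.0408), and a median of 0.12. Oligodendroglia (median 0.12), microglia (0.06), red blood cell genes (-0.80) and meninges (0.15) had 0 called. Under an unadjusted p of 0.05 were 2 oligodendroglia genes, both higher (8.51% of tested genes), 4 red blood cell genes, all lower, and 0 in the other lists. The part of these cells in the tubulin values was not tested.

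The genes whose pattern was most like that of a tubulin were found by the root-mean-square difference of log2(TPM + 1) over the 14 libraries, each gene centred on its own mean, among 12299 genes with a mean of at least 5 TPM. This measure includes the batch difference and carries no test. For Tubb3 the nearest genes were Ckb (0.0649), Nkain1 (0.0737) and Rab3a (0.0763), with Tuba1a in place 9, Tubb2b in place 10 and Tubb5 in place 16. The general Tubb4b was in place 495, just ahead of the neuronal Tubb2a in place 497, and Tubb4a was in place 8436. For Tuba1a they were Vps37d, Reep2 and Sept5 (0.0751 to 0.0754), with Tubb2b and Tubb3 in places 38 and 40, Tubb5 in place 68 and Tubb2a in place 386. For Tuba1b they were Phf5a, Park7 and then Tubb4b (0.0584), a general beta isotype. The near copies of Tuba1b were far off, with the neuronal Tuba1a in place 4221 and the general Tuba1c in place 4759. Nearness thus did not follow the classes throughout. For Tubb5 the nearest were Cndp2, Rab3ip and Nkain1 (0.0587 to 0.0720), with Tubb4b in place 54 as the nearest tubulin.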

How the data were processed

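RNA from freshly isolated GNPs was sequenced by the authors as 50-base single-end reads (Illumina total RNA kit). They mapped reads to the Ensembl mm10 transcriptome with Bowtie 1.0.0, estimated expression with RSEM 1.2.15 at default parameters and deposited gene-level TPM, without read counts or depth. RSEM divides reads shared by similar genes, and TPM is a share of a fixed total. Ensembl identifiers were matched to GENCODE M21 symbols, and sequences and positions come from that annotation. Control columns were matched by number to WT libraries, and batches follow the study's methods.

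Values were analysed as log2(TPM + 1), which understates changes of low genes, for the 17325 genes with at least 1 TPM in at least 4 libraries. Models with genotype and batch were fitted to all 14 libraries with limma 3.58.1 in R 4.3.3 (eBayes with trend). Two-sided p-values received Benjamini-Hochberg adjustment across the tested genes, and called means an adjusted p under 0.05. The procedure was tested on simulated data with 200 changed genes. The study's ComBat was not run. In its place the batch effect fitted by limma was subtracted, and the exact Kruskal-Wallis test ranked those values over 252252 arrangements of the libraries, made across both batches. Members, classes and the 19 gene lists were chosen with earlier results of these data known, so list counts and medians are descriptions. Genes outside the set are named if called in Hom, among the 4 most abundant of their list, or among the 3 nearest in pattern. Alternatives were 2 other pseudocounts, 2 other filters, 2 scalings, no batch term, either batch alone, Het 3 in batch 2, WT and the mutant alone, array weights, a replicate block and leaving out each library. The last coding bases of the alpha genes are not reported here.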

Additional observations from a re-analysis of the deposited data

Results flagged for a closer look

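Among the tubulin values by genotype, 39 groups of libraries were screened for a library set apart from the others (gap to the nearest library divided by the range of the group, against Dixon's 95% limit), which chance passes in about 1 of 20 groups. Tuba1c in Het 3, at 67.69 TPM with the next Het library at 49.96 TPM, gave a ratio of 0.736, above the limit for 5 libraries. Tubb2b in Hom 3, at 1552.35 TPM with the next Hom library at 1333.52 TPM, gave 0.830, just above the limit for 4 libraries.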

How the results depend on the processing

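The number of tubulin genes called lower in Hom against WT was 4, and it was 0 without a batch term, 0 in batch 1 alone, 0 in batch 2 alone and 1 with only the 2 genotypes compared. It was 3 under no filter, median-ratio scaling, quantile normalization and Het 3 in batch 2, where Tuba1a was lost each time, 4 under the other pseudocounts, the filter on mean TPM and array weights, and 2 to 4 when 1 library was left out (2 without Hom 4). For Hom against Het the number was 1, and it was 0 under no filter, 0 under median-ratio scaling, 0 without a batch term, 0 in either batch alone, 0 with Het 3 in batch 2, 0 with only the 2 genotypes compared, and 0 to 1 when 1 library was left out. The cause was not tested. Tubb2a, Tubb2b, Tubb3, Tuba1a and Tubb5 were below 0 in Hom against WT under each alternative. What remained of same-numbered libraries after genotype and batch were removed correlated at r -0.23 to 0.26 (13 pairs, 3 over 0.1). Removing these terms pushes r between libraries of the same batch below 0, so the values cannot decide whether the numbers are pairs. The main fit did not take the numbers as pairs. With a replicate block 3 members were called lower in Hom against WT (Tuba1a had adjusted p 0.0963) and 0 in Hom against Het. Among all tested genes, 245 were lower and 220 higher in Hom. These counts were 80 and 82 in batch 1 alone, 4 and 0 in batch 2 alone, 123 and 136 with only 2 genotypes, 144 and 115 with the replicate block, 147 and 140 without Hom 1, and 161 and 137 without Hom 4. The number lower was 163 without a batch term, 160 without WT 2 and 162 without WT 3. TPM keeps no depth, which limits what can be said of Tubb6 and Tuba1c.

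Signs changed only for members that were not called in the comparison concerned. In Hom against WT, Tuba1b was 0.061 under quantile normalization, 0.015 without a batch term, 0.093 in batch 2 alone, 0.024 with array weights and -0.038 to 0.069 when 1 library was left out. Tubb4b was 0.0017 under quantile normalization, 0.091 in batch 2 alone and -0.091 to 0.042 when 1 library was left out, and Tuba1c was 0.15 in batch 2 alone. In Het against WT, Tuba1a was 0.072 under quantile normalization, and Tubb3 was 0.0017 in batch 2 alone and -0.041 to 0.019 when 1 library was left out. Tubb4b was -0.038 with Het 3 in batch 2 and -0.038 to 0.056 when 1 library was left out. Tubb5 was -0.0063 in batch 2 alone, -0.020 with Het 3 in batch 2 and -0.0091 to 0.066 when 1 library was left out, and Tubb6 was -0.039 in batch 2 alone. In Hom against Het, Tuba1b was 0.0021 in batch 2 alone and -0.094 to 0.018 when 1 library was left out. Tuba1c was 0.21 in batch 2 alone and -0.20 to 0.053 when 1 library was left out. Tubb4a was 0.060 with Het 3 in batch 2 and -0.15 to 0.035 when 1 library was left out. Tubb4b was 0.081 in batch 2 alone, 0.0015 with Het 3 in batch 2 and -0.11 to 0.026 when 1 library was left out.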
